A study of Mus musculus with 4 samples.

Results

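The KIT, PI3K, mTOR and FOXO3 axis was followed through 9 genes in mouse oocytes with and without Parp12: the receptor gene Kit, the kinase genes Pik3ca, Pdpk1, Akt1 and Mtor, the transcription factor gene Foxo3, the complex genes Tsc1 and Tsc2, and Rptor. They were taken by symbol from a table of 55453 genes, and all 9 had a row and passed the filter on low counts. None of the 9 passed the test across all genes. The messenger RNA of germinal vesicle oocytes, which are arrested in meiotic prophase, was sequenced in 4 libraries. The 2 control libraries came from WT oocytes and the 2 knockdown libraries from oocytes labelled Parp12 knockdown, all separated directly from the ovary of Mus musculus. The comparison asks what a loss of Parp12, a gene of the ADP-ribosyltransferase family, does to the oocyte transcriptome. The sources used here do not give the strain, the age, the number of oocytes per library or the means of knockdown. The labels do not state whether the replicates are separate animals or collections, so the p-values describe the spread between these samples, which may be technical.

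In the mouse ovary, KIT ligand from the surrounding granulosa cells binds the receptor tyrosine kinase KIT on the oocyte. PI3K then makes the membrane lipid PIP3, PDK1 and AKT are recruited to it, and AKT phosphorylates FOXO3, which leaves the nucleus. Nuclear FOXO3 holds primordial follicles dormant. AKT also inhibits the TSC1 and TSC2 complex, which otherwise keeps the kinase mTOR in check, so growth of the oocyte and activation of the follicle are tied to the same chain. Much of this control is by phosphorylation and location of proteins, which RNA counts do not measure.

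Library totals ran from 35805122 to 45230773 counts. Parp12 had 14279 and 9419 counts in the controls against 32 and 86 after knockdown, for a log2 fold change of -7.51 with an adjusted p of 1.27e-07 by edgeR, so the labels matched the targeted gene in all 4 libraries. With limma-voom that adjusted p was 0.280, and over all alternatives it ran from 2.32e-47 to 0.280. All 15 oocyte markers examined passed the filter, led by Gdf9 at 5827 CPM (counts per 1000000 counts) on average over the 4 libraries. Of 19 granulosa and cumulus markers, 9 had no count in any library (Amh, Amhr2, Bex2, Foxl2, Fst, Inhba, Inhbb, Krt18 and Krt19), and the list summed to 155.5 to 166.9 CPM in the controls and 134.8 to 154.1 in the knockdowns. Of that sum, Nr5a2 made up 105.0 CPM on average. In bulk libraries, fewer cells expressing a gene and less RNA per cell cannot be told apart.

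Levels of different genes were compared as RPKM, the counts per kilobase of exon for every 1000000 counts, with the summed exon length of each gene in the table. On this scale the 9 genes spanned 39.6-fold, from Kit with a mean over the libraries of 61.5 to Rptor with 1.55. Between them lay Foxo3 at 37.8, Akt1 at 32.8, Mtor at 16.1, Pdpk1 at 15.9, Tsc1 at 13.1, Pik3ca at 9.11 and Tsc2 at 7.31. Among the 15868 tested genes, Kit ranked 834, Foxo3 1520 and Rptor 9884 by this measure. Kit lay above every other member in all 4 libraries, and its lowest library (58.6) stood clear of the highest of Foxo3 (43.5).

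Not every step of that order was larger than the spread between libraries. The ranges of Foxo3 and Akt1 overlapped (34.5 to 43.5 against 29.2 to 36.1), although Foxo3 was the higher in each library. Mtor and Pdpk1 changed places, with each the higher in 2 libraries. Pdpk1 and Tsc1 overlapped in range, and so did Pik3ca and Tsc2. Akt1 stood apart from Mtor, Tsc1 from Pik3ca, and Tsc2 from Rptor, the last pair by 4.71-fold.

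The length chosen bears on the order. Dividing by the longest annotated transcript in place of all exons raised the level of Rptor 2.04-fold, Kit 1.70-fold and Akt1, Pdpk1, Tsc1 and Tsc2 by 1.52 to 1.54-fold, while Pik3ca rose 1.02-fold. Kit then stayed highest at 104.6 and Rptor lowest at 3.17. Akt1 (49.97) moved above Foxo3 (41.8), Mtor (19.0) fell below Pdpk1 (24.3) and Tsc1 (20.1), and Tsc2 (11.2) moved above Pik3ca (9.29).

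**Figure D1:**
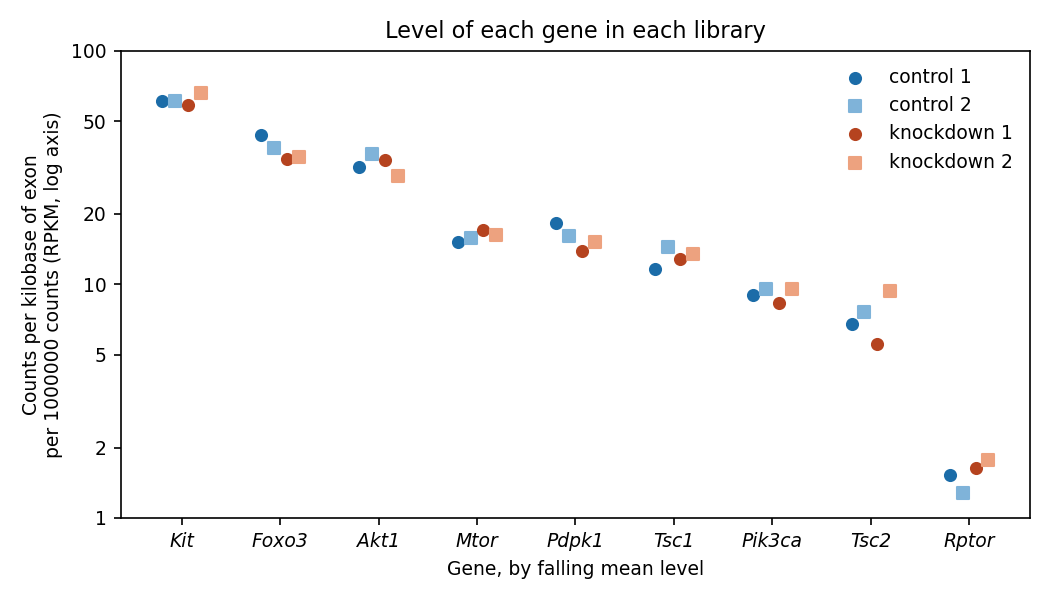
Level of each of the 9 genes in each library, in RPKM on a log axis, ordered by mean level, with circles and squares for replicates 1 and 2, blue for control and red for knockdown. Kit lies between 58.6 and 65.6 in the 4 libraries and Rptor between 1.27 and 1.77.

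The receptor gene Kit, on chromosome 5 (75574916 to 75656722, plus strand of mm10), had 24583 and 22199 counts with Parp12 intact against 22234 and 20935 after knockdown. In CPM these were 543.5 and 542.3 against 522.2 and 584.7. The knockdown values lay on either side of both controls. edgeR estimated a log2 fold change of 0.02 (SE 0.07; 95% interval -0.14 to 0.19) and an adjusted p of 0.978. Of the 9 genes Kit had the narrowest interval, which corresponds to a fold between 0.909 and 1.14.

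Kitl encodes the ligand of KIT and is a product of granulosa cells. It had 21.6 and 18.2 CPM in the controls against 15.3 and 13.7 after knockdown, both knockdown values below both controls. Its log2 fold change was -0.45 (95% interval -1.09 to 0.19), and the adjusted p was 0.863 by edgeR. In the granulosa marker sum given above, the higher knockdown library (154.1 CPM) lay just below the lower control (155.5 CPM). That sum includes Kitl itself, so it is no separate measure. Without Kitl the sum overlapped between the groups. Its largest member, Nr5a2, had 117.4 and 103.3 CPM in the controls against 90.8 and 108.6 after knockdown, which overlapped. The part of granulosa cell content in the Kitl value was not tested. Per kilobase of exon, Kit exceeded Kitl 16.7-fold and 19.8-fold in the control libraries, and 22.6-fold and 28.2-fold in the knockdowns. With the longest transcript as length, chosen after seeing the data, the ratio ran from 27.1 to 45.9 over the 4 libraries.

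Pik3ca, which encodes the catalytic subunit p110 alpha of class I PI3K, lies on chromosome 3 (32397671 to 32468486, plus strand). It had 82.1 and 87.1 CPM in the controls against 75.7 and 86.4 after knockdown. Knockdown replicate 2 fell between the controls, so the groups overlapped. This gave a log2 fold change of -0.07 by edgeR (SE 0.14; 95% interval -0.37 to 0.23; adjusted p 0.969).

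Pik3ca was a minor part of the catalytic PI3K messenger in these oocytes. Pik3cd, which encodes p110 delta and is best known from white blood cells, made up 87.0% to 89.0% of the summed level per kilobase of exon of the 4 class I catalytic genes. Pik3ca contributed 6.14% to 7.59%, and Pik3cb, which encodes p110 beta, 4.57% to 5.29%. Pik3cg had 14 counts in control replicate 1, 44 in knockdown replicate 2 and 0 in the other libraries. With the longest annotated transcript as length, the share of Pik3cd was 88.9% to 90.7%.

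Pik3cd lies on chromosome 4 (149649168 to 149702571, minus strand), and none of its exon bases are shared with another gene of the table. It had 715.6 and 726.0 CPM in the controls against 756.0 and 682.2 after knockdown, which enclose the controls. The log2 fold change was 0.00 (95% interval -0.15 to 0.15). Ptprc, which marks all white blood cells, had 0 counts in 3 libraries and 12 in knockdown replicate 2. Adgre1 of macrophages had 0 in all 4, and Cd68 had 0, 44, 130 and 74. Other markers of the same blood, endothelium and mast cell list were higher. Pecam1 had 99.0 and 101.3 CPM in the controls against 97.9 and 91.6 after knockdown, and Kdr 14.1 and 8.35 against 10.2 and 12.9. The part of other cells in the Pik3cd value was not tested.

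Among the regulatory subunits, which stabilise and recruit p110, Pik3r3 made up 57.5% to 72.0% of the summed level per kilobase of exon, Pik3r1 25.4% to 34.9% and Pik3r2 2.62% to 7.56%. Of the 50-nucleotide stretches in the longest Pik3r3 transcript, 23.9% also occur in Gm49337, an overlapping gene on the same strand, so the level of Pik3r3 is uncertain. Pik3r2 had the smallest p among the PI3K subunits. It had 6.79 and 11.7 CPM in the controls against 5.33 and 4.30 after knockdown, for a log2 fold change of -0.91 (95% interval -1.98 to 0.16), and edgeR gave an adjusted p of 0.835. Its change was -0.50 without control replicate 2 and -1.26 without control replicate 1, on the log2 scale.

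**Figure D2:**
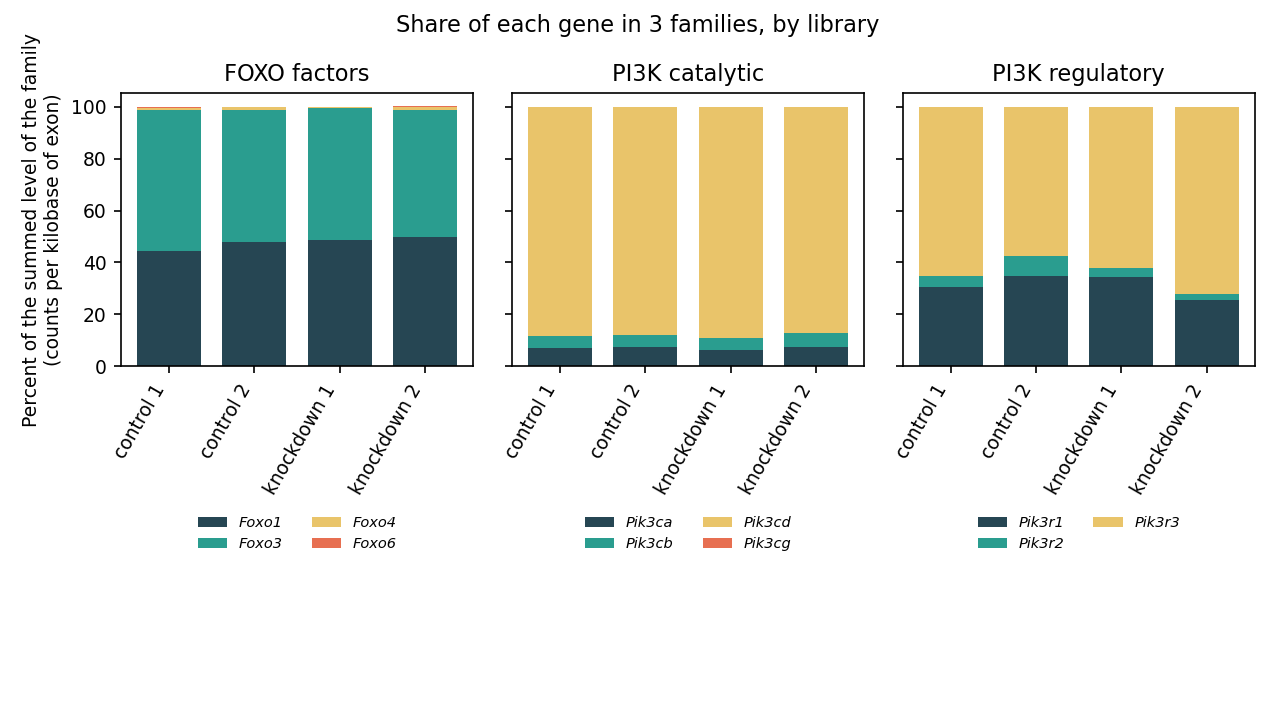
Share of each gene in the summed level per kilobase of exon of its family, in percent, for each of the 4 libraries. Pik3cd fills 87.0% to 89.0% of the PI3K catalytic bar in every library, whereas Foxo1 and Foxo3 divide the FOXO bar almost evenly.

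PDK1, the kinase that phosphorylates the activation loop of AKT, is encoded by Pdpk1 on chromosome 17 (24073680 to 24150924, minus strand). Its control libraries held 200.8 and 175.6 CPM and its knockdown libraries 152.6 and 166.7, all of the latter below the controls. Their mean was 84.8% of that in the controls. Its log2 fold change was -0.25 (SE 0.11, 95% interval -0.48 to -0.01), the unadjusted p was 0.0435 and the adjusted p was 0.835 by edgeR. The change therefore did not pass the test over all genes.

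Akt1, on chromosome 12 (112653821 to 112674884, minus strand), encodes the AKT kinase most widely expressed in tissues. It had 130.1 and 147.9 CPM in the controls against 140.1 and 119.6 after knockdown. The groups overlapped, since knockdown replicate 1 lay between the controls. By edgeR the log2 fold change came to -0.09 (SE 0.12; 95% interval -0.35 to 0.17), and the adjusted p to 0.955.

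Akt2, a relative of Akt1, had a log2 fold change of 0.07 (95% interval -0.23 to 0.38). The level of Akt2 is uncertain, because 16.0% of its 50-nucleotide stretches also occur in the annotated pseudogene Akt2-ps.

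Foxo3 encodes the factor that keeps primordial follicles dormant and lies on chromosome 10 (42181841 to 42276755, minus strand). There were 14881 and 11870 counts in the controls against 11115 and 9495 after knockdown. The CPM values were 329.0 and 289.9 in the controls against 261.1 and 265.2 in the knockdowns. Both knockdown libraries lay below both controls, and their mean was 85.0% of that in the controls. As a log2 fold change this was -0.24 (SE 0.09, 95% interval -0.44 to -0.04), with an unadjusted p of 0.0221 and an adjusted p of 0.835 by edgeR. With DESeq2 the adjusted p was 0.111, the smallest over all alternatives, which ran up to 0.994.

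The listing of Foxo3 and Pdpk1 depended on which libraries entered the fit, and that of Pdpk1 also on the model. At an unadjusted p under 0.05 both were listed by edgeR with all 4 libraries and without control replicate 2, and neither was listed without control replicate 1 or without either knockdown replicate. The log2 fold change without one library ran from -0.34 to -0.13 for Foxo3 and from -0.35 to -0.13 for Pdpk1. With the same 4 libraries, the unadjusted p of Pdpk1 was 0.0562 with the replicate block and 0.0540 with the legacy fit of edgeR, while Foxo3 stayed listed at 0.0241 and 0.0289.

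Foxo1, the other abundant FOXO gene, had nearly the same level as Foxo3. In RPKM, Foxo3 had 43.5 and 38.3 in the controls against 34.5 and 35.03 after knockdown, whereas Foxo1 had 35.5 and 36.2 and then 33.1 and 35.5. Foxo3 was thus the higher of the pair in 3 libraries and the lower in knockdown replicate 2. With the longest transcript as length Foxo3 was the higher in all 4 libraries, at 51.5% to 56.8% of the family against 42.1% to 47.3% for Foxo1. Foxo1 had a log2 fold change of -0.07 (95% interval -0.25 to 0.11). It shares 674 exon bases with Gm20402 on the other strand, and the sources used here do not say whether strand was used in counting. Foxo4 and Foxo6 together contributed little, at most 1.43% and 0.667% of the family's level in any library.

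Within each library, the ratio of Kit to Foxo3 per kilobase of exon does not depend on the library total. This ratio was picked after the values were seen. It was 1.40 and 1.59 in the controls against 1.70 and 1.87 after knockdown, so the groups did not overlap. Nor did they for Kit to Rptor, at 39.8 and 47.8 in the controls against 35.8 and 37.1. Of 8 ratios computed between the 9 genes, the other 6 overlapped between the groups, among them Foxo3 to Akt1, Tsc1 to Tsc2, Mtor to Rptor and Pdpk1 to Akt1. Such separation is common with 2 libraries a group. For single genes in CPM, both knockdowns lay above both controls in 18.0% of all tested genes and below in 16.8%. The groups of Foxo3 and of Rptor were themselves apart in CPM, so these 2 ratios are not separate results.

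Tsc1 and Tsc2 encode the 2 main proteins of the complex that restrains RHEB, the GTPase that activates mTOR. Tsc1, on chromosome 2 (28641228 to 28691167, plus strand), had 137.2 and 171.7 CPM in the controls against 151.8 and 159.1 after knockdown. Both knockdown values lay between the controls. edgeR estimated a log2 fold change of 0.01 (SE 0.12; 95% interval -0.25 to 0.27) and an adjusted p of 0.996.

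Tsc2, on chromosome 17 (24595816 to 24632630, minus strand), had the largest gap between replicates of the 9. It had 64.9 and 72.9 CPM in the controls against 53.6 and 90.1 after knockdown, so that the knockdown replicates enclosed both controls and differed by 0.75 on the log2 scale. Its lowest library still held 2282 counts, where counting error alone gives an SD of 2.09%. Its log2 fold change was 0.04 (SE 0.21, 95% interval -0.41 to 0.48), and it ran from -0.36 without knockdown replicate 2 to 0.39 without knockdown replicate 1. Tsc2 shares 693 exon bases (7.20% of its exon length) with Pkd1 on the other strand. Pkd1 had 599 and 220 counts in the controls against 438 and 310 after knockdown, and its part in the Tsc2 values was not tested.

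The ratio of Tsc1 to Tsc2 per kilobase of exon was 1.72 and 1.91 in the controls against 2.30 and 1.44 after knockdown. Tbc1d7, the gene of the complex's small subunit, had 21.5 and 18.2 CPM in the controls against 19.6 and 9.30 after knockdown, with a log2 fold change of -0.43 (95% interval -1.17 to 0.32).

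The kinase gene Mtor, on chromosome 4 (148448611 to 148557683, plus strand), had 152.8 and 160.1 CPM in the controls against 173.0 and 164.8 after knockdown. Both knockdown libraries lay above both controls, and their mean was 107.9% of that in the controls. This gave a log2 fold change of 0.11 by edgeR (SE 0.10; 95% interval -0.11 to 0.33; adjusted p 0.922). This interval contains 0, and its upper end corresponds to 1.26-fold.

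Rptor encodes raptor, the scaffold that brings substrates to mTOR in complex 1, and lies on chromosome 11 (119602905 to 119899576, plus strand). It had the fewest counts of the 9, with 934 and 702 in the controls against 940 and 854 after knockdown. Its CPM values were 20.6 and 17.1 against 22.1 and 23.9, with both knockdowns above both controls. By edgeR the log2 fold change came to 0.27 (SE 0.27; 95% interval -0.31 to 0.85), and the adjusted p to 0.933. The log2 fold change was 0.43 without control replicate 1 and 0.14 without control replicate 2. Rptor shares 84 exon bases with Rptoros on the other strand, which had 0 counts in all 4 libraries.

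Rptor was low beside the kinase it serves. Mtor exceeded it 9.86-fold and 12.4-fold per kilobase of exon in the controls, and 10.4-fold and 9.21-fold in the knockdowns. With the longest transcript as length the ratio was 5.32 to 7.19. Rictor, the scaffold gene of mTOR complex 2, had a mean of 2.89 RPKM against 1.55 for Rptor, and made up 61.5% to 68.6% of the pair in each library. Its log2 fold change was 0.02 (95% interval -0.36 to 0.39).

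Taking the 9 genes as a group, 0 passed the threshold of an adjusted p under 0.05 by edgeR, DESeq2 or limma-voom, and over all 15868 tested genes edgeR called 0.00630%, which is Parp12 alone. At an unadjusted p under 0.05 edgeR listed 2 of the 9 lower (Foxo3 and Pdpk1) and 0 higher, beside 2.57% lower and 2.94% higher over all tested genes. Both knockdown libraries lay below both controls for 2 of 9, beside 16.8% of all tested genes, and above both for 2 of 9, beside 18.0%. The median log2 fold change was 0.01 for the 9 genes and 0.00 for all tested genes, with 5 members above 0 and 4 below.

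The intervals bound how large a difference these libraries could hide. For all 9 genes the 95% interval excluded a 2-fold change in either direction, against 46.7% of all tested genes and 7337 of the 8432 with a mean of at least 10 CPM, a level that all 9 exceed. A 1.5-fold change was excluded for 8 of 9, the exception being Rptor, against 28.8% of all tested genes and 4570 of those 8432.

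**Figure D3:**
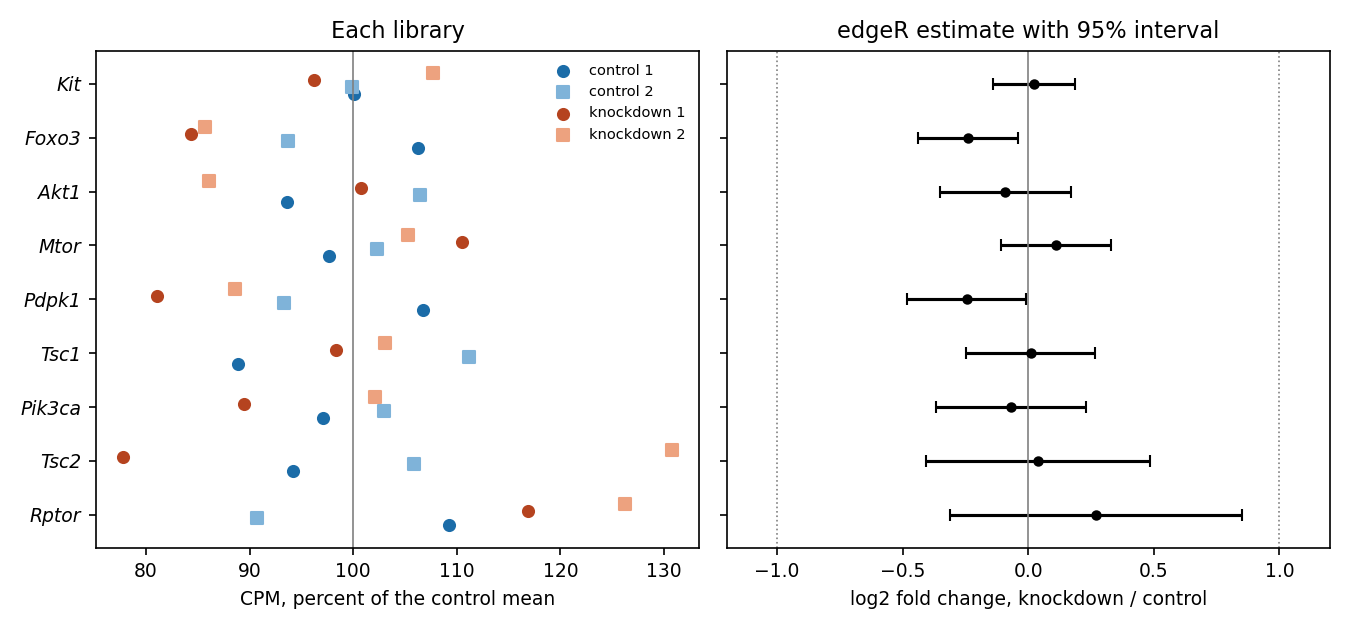
Left, CPM of each gene in each library as a percent of its control mean; right, the log2 fold change of knockdown over control by edgeR with its 95% interval, with dotted lines at a 2-fold change. Every interval lies inside the dotted lines, and the knockdown replicates of Tsc2 (53.6 and 90.1 CPM) are the farthest apart.

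The genes around the 9 were read from 10 lists of their partners, inputs and outputs, with 113 further genes of which 108 were tested. By edgeR 0 of the 108 passed the threshold, as by limma-voom. DESeq2 called 1, Inpp5d, beside 305 of the 21358 genes in its fit. At an unadjusted p under 0.05 edgeR listed 1 higher (Lamtor1) and 4 lower (Inpp5d, Ep300, Sesn2 and Ddit4), together 4.63% of them beside 5.51% of all tested genes. Their median log2 fold change was -0.02. Both knockdown libraries lay above both controls for 20 of them (18.5%) and below for 22 (20.4%).

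Phosphatases that act against the pathway had the lowest median of the lists, -0.48 over 8 tested genes, with 7 below 0. Of these, 0 were called by edgeR and 1, Inpp5d, by DESeq2, which called 305 of 21358 genes in all. Of the 8, 4 had a mean under 10 CPM and wide intervals. Both knockdown libraries lay below both controls for 5 of them, 62.5% beside 16.8% of all tested genes, and above both for 0. Inpp5d, which encodes the PIP3 phosphatase SHIP1, had 48.3 and 46.5 CPM in the controls against 31.97 and 31.3 after knockdown. Each group's replicates lay close together and the groups were far apart. The log2 fold change was -0.59 (95% interval -1.004 to -0.17), with an unadjusted p of 0.00946, an adjusted p of 0.835 by edgeR and one of 0.00824 by DESeq2. Over all alternatives the adjusted p of Inpp5d ran from 0.00824 to 0.994.

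By its mean over the 4 libraries, the most abundant gene of the phosphatase list per kilobase of exon was Phlpp2, which encodes a phosphatase of AKT, at 51.8 ± 4.23 CPM (SD, n = 2) in the controls against 47.1 ± 6.50 after knockdown. Inpp5d was the higher of the pair in the controls alone (6.24 against 6.14 RPKM), and over all libraries with the longest transcript as length (8.01 against 6.31).

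Among the adaptor genes listed with KIT, Grb2 had the smallest p, with 58.2 ± 1.11 CPM (SD, n = 2) in the controls against 69.8 ± 6.81 after knockdown and a log2 fold change of 0.25 (95% interval -0.08 to 0.59). The level of Grb2 is uncertain, since 8.38% of its 50-nucleotide stretches also occur in other genes. The list's 12 tested genes had a median of -0.19. Of the kinases of the PDK1 and AKT branch, Sgk1, a relative of AKT, had 18.9 ± 0.624 CPM in the controls against 25.8 ± 2.36 after knockdown. Among 16 genes for FOXO factors, their partners and their targets, with a median of -0.04, Ywhae was the most abundant per kilobase of exon. It encodes a protein of the family that holds phosphorylated FOXO in the cytoplasm, and had 488.8 ± 49.3 CPM in the controls against 499.3 ± 32.2 after knockdown. Ep300, an acetyltransferase of FOXO factors and histones, had 142.6 and 141.2 CPM in the controls against 120.9 and 106.0 after knockdown, for a log2 fold change of -0.32 (95% interval -0.57 to -0.07), and edgeR gave an adjusted p of 0.835.

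Cdkn1b, a cell cycle inhibitor gene, and Bcl2l11, a pro-apoptotic gene, are classical FOXO targets and were picked after their values were seen. Cdkn1b had 39.2 and 35.8 CPM in the controls against 38.9 and 32.4 after knockdown. Bcl2l11 had 5.97 and 5.94 CPM in the controls against 5.50 and 6.98 after knockdown. The groups overlapped for both.

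Around mTOR, the 12 tested genes of the complexes had a median log2 fold change of 0.00. Mapkap1, a subunit of complex 2, was the most abundant of them per kilobase of exon, at 184.8 ± 28.8 CPM (SD, n = 2) in the controls against 190.3 ± 0.788 after knockdown. Deptor, an inhibitor of mTOR, had 90.3 ± 4.196 and 80.3 ± 3.11 CPM, with a log2 fold change of -0.17 (95% interval -0.46 to 0.11). In the list of TSC and RHEB genes, Rheb had 128.8 ± 5.96 and 119.9 ± 13.1 CPM, and its paralog Rhebl1 had 9.89 ± 4.11 and 15.1 ± 3.62. Rhebl1 shares exon bases with Gm49442 on the other strand and with Dhh on its own, so its level is uncertain.

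Outputs of complex 1 had a median log2 fold change of 0.00 over 11 tested genes. Per kilobase of exon, Eif4b, a translation initiation factor gene downstream of S6 kinase, was the most abundant at 508.2 ± 17.8 CPM (SD, n = 2) in the controls against 502.8 ± 21.3 after knockdown. Eif4ebp2, a translational repressor that mTOR inactivates, had 48.0 and 48.8 CPM in the controls against 62.1 and 60.9 after knockdown. Its groups did not overlap. The log2 fold change was 0.34 (95% interval -0.01 to 0.69), and edgeR gave an adjusted p of 0.835.

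Amino acid input to mTOR complex 1 was covered by 25 tested genes with a median log2 fold change of -0.03. Rraga, a GTPase that brings the complex to the lysosome, was the most abundant per kilobase of exon, at 399.4 ± 12.2 CPM (SD, n = 2) in the controls against 432.2 ± 11.7 after knockdown. Lamtor1, which anchors the Rag GTPases to the lysosome, had 104.6 and 98.5 CPM in the controls against 129.6 and 119.1 after knockdown. The log2 fold change of Lamtor1 was 0.29 (95% interval 0.03 to 0.55), and edgeR gave an adjusted p of 0.835. Lamtor1 was not among the genes followed through the alternatives. Sesn2, a leucine sensor that inhibits the pathway, had 14.4 and 18.7 CPM in the controls against 9.65 and 6.53 after knockdown. Its log2 fold change was -1.002 (95% interval -1.80 to -0.20), and edgeR gave an adjusted p of 0.835, whereas DESeq2 gave 0.0578 and all alternatives ran from there to 0.994. Ddit4, a stress-induced inhibitor of mTOR, was the most abundant per kilobase of exon in the list for LKB1 and AMPK (13 tested, median 0.08). It had 138.8 and 114.7 CPM in the controls against 108.1 and 94.6 after knockdown, for a log2 fold change of -0.32 (95% interval -0.62 to -0.03), and edgeR gave an adjusted p of 0.835. Without control replicate 1 the log2 fold change was -0.16, with an unadjusted p of 0.302 by edgeR. Leaving out 1 library in turn, Inpp5d kept an unadjusted p under 0.05 each time, whereas Ddit4, Ep300 and Sesn2 each lost it in 2 of the 4 cases.

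**Figure D4:**
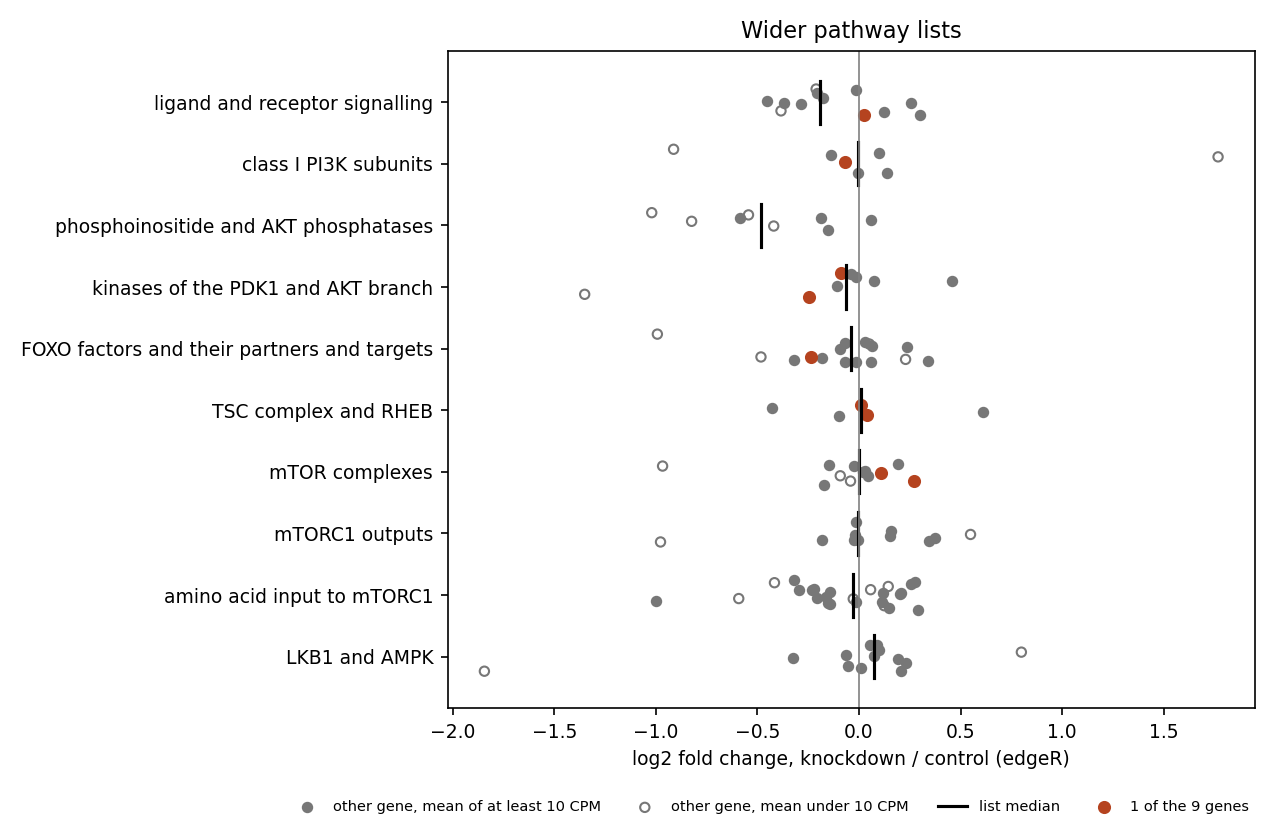
Log2 fold change of knockdown over control by edgeR for every tested gene of the 10 pathway lists, 1 point per gene, with the 9 genes in red, open circles for genes with a mean under 10 CPM and a black bar at each list's median. The phosphatase list has its median at -0.48, and the other medians lie between -0.19 and 0.08.

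The tested genes closest to Kit and Foxo3 in level and profile were found by the Euclidean distance of log2 RPKM, with 0.1 added, over the 4 libraries. For Kit they were Dstn, which encodes an actin-severing protein (distance 0.0410), and Tfpt (0.0674). For Foxo3 they were Nr2e1, a nuclear receptor gene (0.113), and Hmgcs1, of cholesterol synthesis (0.129). Within a distance of 0.5 there were 360 genes for Kit and 380 for Foxo3 among the 15867 compared, so such a match is common.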

How the data were processed

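The deposited table holds raw counts per gene in 4 libraries, per the file headers with exon coordinates and summed exon length. Per the submitters' processing notes, the tools were STAR 2.7.5b, Trim Galore 0.6.4, DESeq2 1.28.1 and featureCounts 2.0.0 and the build was mm10, with no roles named. The use of strand, the treatment of multi-mapped reads, and whether reads or fragments were counted were not given in the sources used here. Groups and replicate numbers came from sample titles. The table had 0 entries without a gene name.

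Genes kept by edgeR's filterByExpr (minimum count 10, total 15) numbered 15868. They were fitted in R 4.3.3 with edgeR 4.0.16 (TMM, glmQLFit with robust estimation, glmQLFTest, group as the only term), two-sided, with Benjamini-Hochberg adjustment over all of them at 0.05. The SE came from the F statistic, and 95% intervals from the t quantile. Alternatives were 3 other scalings, 2 other filters, the replicate block, each library left out in turn, limma-voom (limma 3.58.1), DESeq2 1.42.0 and edgeR's legacy fit. The main edgeR fit, DESeq2 and limma-voom were also run on simulated counts, and the other alternatives were not. An exact permutation test over 6 arrangements cannot go below 0.333, so none is given.

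Symbols, exon overlaps and 50-nucleotide stretches were compared with GENCODE vM21 (GRCm38), in which all 9 genes had the table's coordinates. Replicate pairs differed by more than sampling noise (chi-square of 38.0 and 32.6 per degree of freedom). The members and lists were chosen with earlier results of these data known. Named genes were the 9 members, Parp12, Kitl, genes of the lists past the threshold (0), in each list the smallest p outside the members and the highest level per exon length, and the 2 genes nearest to Kit and to Foxo3. Other genes were named after their values were seen. Theca and stroma markers summed to 2.40 to 6.45 CPM per library, and markers of blood, endothelium and mast cells to 106.8 to 113.9 CPM, of which Pecam1 held 97.5 on average. Some genes of the wider lists are not reported here by name.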

Additional observations from a re-analysis of the deposited data

How the results depend on the processing

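Counts of the 9 members called were 0 under all 13 alternatives. Over all genes edgeR called 1, and 8 with a minimum of 1 CPM in each library of either group, DESeq2 305, limma-voom 0, and 1 to 2 without one library. Genes of the wider lists numbered 1 with DESeq2 (Inpp5d) and 0 otherwise. Same-numbered libraries did not deviate together (correlation 0.00802), and with the replicate block edgeR again called 1 gene and 0 members. Foxo3, Pdpk1, Mtor and Rptor kept their direction under all 13 alternatives. The log2 fold changes that changed sign without one library ran from -0.0584 to 0.107 for Kit, -0.162 to 0.031 for Pik3ca, -0.214 to 0.0125 for Akt1, -0.13 to 0.16 for Tsc1, -0.36 to 0.39 for Tsc2, -0.0793 to 0.0667 for Pik3cd, -0.0815 to 0.15 for Ywhae, -0.22 to 0.0025 for Rheb, -0.10 to 0.20 for Mapkap1, -0.0611 to 0.0277 for Eif4b, -0.0542 to 0.0772 for Dstn and -0.12 to 0.13 for Tfpt. Tsc2 was at -0.0141 with limma-voom. Tfpt was at -0.0001 with median-of-ratios factors, -0.0027 with upper-quartile factors and -0.0053 with limma-voom. Parp12 had -7.73 with limma-voom. The cause of these shifts was not tested. With 2 libraries a group, the 95% interval excluded a 2-fold change for 79 of 7436 tested genes with a mean under 10 CPM. The replicate block ended the listing of Pdpk1 at an unadjusted p under 0.05 and of no other member.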

Other observations

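Other families of the pathway were also led by a single gene, by share of the summed level per kilobase of exon. Among the AMPK catalytic genes, Prkaa1 made up 71.8% to 76.8% and Prkaa2 the rest. Among the SGK kinases, relatives of AKT, Sgk1 made up 94.7% to 100% and Sgk3 had 0 counts in all 4 libraries. Eif4ebp2 held 73.9% to 82.1% of the level of the translational repressors that mTOR inactivates. Of these, Eif4ebp3 had 0 counts in all 4 libraries, but 67.3% of its exon bases are shared with AC115631.1 on its own strand, so its level is uncertain. Rps6kb1 held 79.0% to 93.7% of the S6 kinase pair. Phlpp2 held 89.3% to 94.1% of the PHLPP pair and Rheb 71.1% to 87.5% of the RHEB pair.

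Rps6kb1 had 4.63 ± 0.0583 RPKM (SD, n = 2) in the controls and 6.01 ± 0.108 after knockdown, for a log2 fold change of 0.37 that was not called. It shares 155 exon bases with Rnft1 on the other strand.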
